A study of Homo sapiens with 6 samples.

Results

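The Hippo kinases and upstream regulators were described through 10 genes. The genes were listed by name, with earlier results of these data known. They comprised the MST kinases STK3 and STK4, the LATS kinases LATS1 and LATS2, the adaptors SAV1, MOB1A and MOB1B, and the upstream regulators NF2, WWC1 and TAOK1. All 10 were found among the 58302 genes of each table. SK-N-BE(2), an established human neuroblastoma cell line, was transfected with small interfering RNA (siRNA) and sequenced as bulk RNA. The control group, NC, comprised 3 samples with a negative control siRNA, and the siPrp19 group comprised 3 samples with siRNA against Prp19, the ubiquitin ligase of the spliceosome encoded by PRPF19. The sample labels give a transfection of 72 h for both groups, whereas the study's methods give a shorter time, and both groups share the cell line, the transfection and the replicate numbers 1 to 3. The study selected 1 of its siRNAs for its later assays. In these samples an effect of that siRNA on other transcripts and the loss of Prp19 therefore cannot be told apart. The study also sequenced SK-N-AS cells after the knockdown and overexpressed Prp19 in both cell lines, and those experiments are not part of these samples. The study compared the groups to find the genes whose transcripts depend on Prp19.

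In the Hippo pathway, the MST kinases STK3 and STK4 bind the scaffold SAV1 and phosphorylate the LATS kinases together with their MOB1 coactivators. Active LATS kinases phosphorylate the coactivators YAP and TAZ, which are then kept out of the nucleus or degraded. NF2 (merlin), WWC1 (KIBRA) and the TAO kinase TAOK1 act upstream and switch the cascade on at the cell cortex.

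PRPF19 was measured first, as a check of the labels. Its level, in FPKM (fragments scaled by gene length and by a factor per sample), was 53.1, 53.1 and 64.9 in NC replicates 1, 2 and 3. In the siPrp19 samples it was 21.8, 28.5 and 33.6, so every siPrp19 sample was below every NC sample. The mean of PRPF19 was 49.0% of that in NC (log2 fold change -1.04, SE 0.19, exact permutation p = 0.1, the smallest that 3 samples against 3 allow). Its limma adjusted p was 0.9999, and 1.6e-12 when limma's voom was run on recovered reads with the replicate number as a block. Whole reads recovered from the FPKM values came to between 18874465 and 21739429 per NC sample and between 22059530 and 24022259 per siPrp19 sample. All 10 markers of sympathoadrenal neuroblastoma cells were at 1 FPKM or more, and their sum was 2131 to 2243 in NC and 1978 to 2573 in siPrp19. Of 6 fibroblast markers 5 were also at this level, with COL1A2 near 0 and sums of 101 to 121 in NC and 93.7 to 119.5 in siPrp19, and their part in the results was not tested. At a median of 1 FPKM or more were also 1 of 4 epithelial and 2 of 4 Schwann cell markers, with SOX10 at 0 in all samples, and none of 4 immune and 3 endothelial markers. In bulk RNA, fewer cells of a type and less RNA per cell cannot be told apart.

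Of the 10 members, 7 averaged 1 FPKM or more in the 6 samples and were tested among the 14462 genes at this level by limma on log2(FPKM + 0.1). No member passed a false discovery rate (FDR) of 0.05 (0 of 7, background 0%), and none had an unadjusted p under 0.05 (background 1.56%, or 225 genes). The limma adjusted p was 0.9999 for each of the 7. No gene tested had a smaller one in this fit, PRPF19 included, so the lack of calls is not particular to the members. The levels of MOB1A did not overlap between the groups, being lower with siPrp19 (1 of 7 members, background 2.84%), and no member was higher without overlap (background 2.77%). Within same-numbered pairs, 5 of 7 members were lower with siPrp19 in 3 of 3 pairs (background 21.3%) and NF2 was higher in 3 of 3 (background 19.2%). The median log2 fold change of the 7 was -0.13, beside -0.0040 over all genes tested. With the replicate number as a block, 2 members, MOB1A and MOB1B, were lower at an unadjusted p under 0.05 (background 8.77%), and no gene passed the FDR (background 0%). When limma's voom was run on the recovered reads with the same block, the same 2 members were called lower at an FDR of 0.05, beside a background of 4.65%. Voom without the block called 0 members and 0 genes. Voom with the block also differs from the blocked limma fit in its weights and variance model, and these parts were not tested apart.

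**Figure D1:**
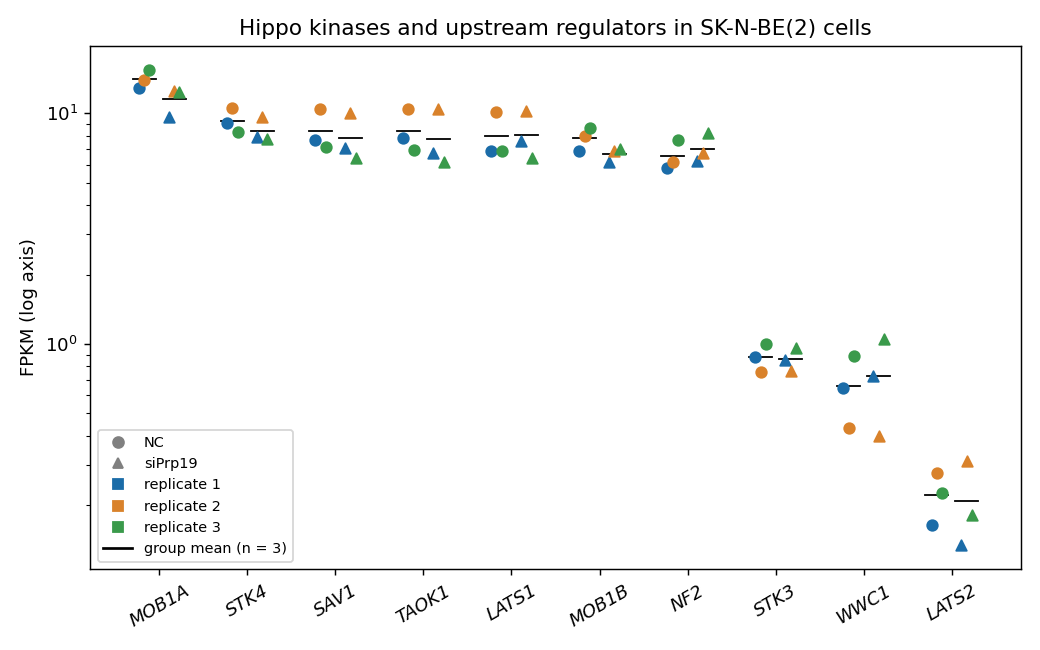
FPKM of the 10 members in each of the 6 samples, on a log axis and ordered by the NC mean; circles are NC, triangles siPrp19, colours replicate numbers and black bars group means (n = 3). MOB1A was the most abundant member at 14.1 FPKM in NC, 6 members lay between 6.56 and 9.28, and STK3, WWC1 and LATS2 lay under 1 FPKM.

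The members formed 2 ranges of abundance. FPKM is scaled by gene length, so levels can be set side by side between genes as far as that length fits the transcripts present. The length covers the annotated exons of a gene together, and whole reads were obtained with 11906 bases for STK3 and 9075 for STK4. Which transcripts were expressed was not tested. In NC, MOB1A stood above the other members with 14.1 ± 1.32 FPKM (SD, n = 3), and its lowest NC sample was above the highest of STK4. STK4, SAV1, TAOK1, LATS1, MOB1B and NF2 followed with means of 9.28, 8.40, 8.40, 7.98, 7.84 and 6.56 FPKM, and each overlapped the next in this order. STK3 (0.880 FPKM) and WWC1 (0.656 FPKM) were separated from these and overlapped each other. LATS2 was lowest at 0.222 FPKM and did not overlap WWC1. STK4 exceeded STK3, LATS1 exceeded LATS2 and MOB1A exceeded MOB1B in all 6 samples.

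The MST kinases start the core cascade. STK4 (chr20:44966474-45079959, plus strand, GRCh38) measured 9.05, 10.5 and 8.27 FPKM in NC and 7.91, 9.61 and 7.75 FPKM in siPrp19, from 1485 to 1814 reads per sample. Replicate 2 was highest in both groups, the groups overlapped, and every siPrp19 sample was below the NC sample of its own number. The log2 fold change was -0.14 (SE 0.15, 95% interval -0.49 to 0.22, exact permutation p = 0.5). In the blocked fit the interval of STK4 was -0.28 to 0.0025, and limma's voom with the block gave an adjusted p of 0.174. STK3 (chromosome 8) measured 0.878, 0.758 and 1.00 FPKM in NC and 0.850, 0.763 and 0.958 FPKM in siPrp19, from 159 to 283 reads. Here replicate 2 was lowest in both groups and the values lay almost on top of each other. The log2 fold change of STK3 was -0.03 (SE 0.24, 95% interval -0.60 to 0.54), taken, like that of LATS2 and WWC1, from the fit of the 26006 genes that averaged 0.1 FPKM or more. The ratio of STK4 to STK3 was between 8.09 and 13.9 in the 6 samples. It was lower with siPrp19 in 3 of 3 pairs, by 0.11 on the log2 scale (SE of the pair differences 0.04), and the exact permutation test over samples gave p = 0.7 (adjusted over 3 ratios 0.7).

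The LATS kinases phosphorylate YAP and TAZ directly. LATS1 (chr6:149658153-149718256, minus strand) measured 6.89, 10.2 and 6.88 FPKM in NC and 7.57, 10.2 and 6.44 FPKM in siPrp19, from 1176 to 1833 reads. Replicate 2 was about as high in siPrp19 as in NC, replicate 1 was higher and replicate 3 lower with siPrp19. On the log2 scale the fold change of LATS1 was 0.01 (SE 0.23, 95% interval -0.54 to 0.57, exact permutation p = 0.9), and the interval in the blocked fit ran from -0.16 to 0.19. LATS2 (chr13:20973032-21061547, minus strand) measured 0.164, 0.275 and 0.227 FPKM in NC and 0.134, 0.310 and 0.181 FPKM in siPrp19. These values rest on 17 to 36 reads per sample, and the log2 difference was -0.09 (SE 0.39, 95% interval -1.02 to 0.85). The ratio of LATS2 to LATS1 ranged from 0.0177 to 0.0329, with overlapping groups (exact permutation p = 0.7).

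SAV1, the scaffold that holds the MST kinases and aids their activation, lies at chr14:50632058-50668331 on the minus strand. It measured 7.66, 10.4 and 7.12 FPKM in NC and 7.04, 10.1 and 6.39 FPKM in siPrp19. The siPrp19 sample was lower in each pair, but the groups overlapped over most of their range, since replicate 2 exceeded the other replicates in both. The log2 fold change was -0.11 (SE 0.22, 95% interval -0.65 to 0.43, exact permutation p = 0.5). With the block the interval was -0.25 to 0.03, and limma's voom with the block gave an adjusted p of 0.427. SAV1 overlaps ATL1, a gene of the opposite strand with 3.66 to 14.2 FPKM in these samples, and 18.4% of the 50-base windows of SAV1 exons also occur in another gene's exons. The library kit does not mark strand, so reads of the shared stretch cannot be told apart. Over the samples ATL1, like SAV1, was highest in replicate 2 and lowest in replicate 3 of both groups (Pearson r with SAV1 0.83, a description over n = 6 samples that share these replicates). Within pairs ATL1 was higher with siPrp19 (8.60 against 8.92, 13.1 against 14.2 and 3.66 against 4.41 FPKM for NC against siPrp19), whereas SAV1 was lower. The part of shared reads in the values of SAV1 was not tested.

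MOB1A and MOB1B, the coactivators that bind LATS kinases, showed the lowest fold changes of the 10 members. MOB1A measured 12.8, 14.0 and 15.5 FPKM in NC and 9.65, 12.5 and 12.4 FPKM in siPrp19, from 1412 to 1980 reads. All siPrp19 samples lay below all NC samples, with siPrp19 replicate 1 lowest and siPrp19 replicate 2 close to NC replicate 1. The mean was 81.8% of that in NC (log2 fold change -0.29, SE 0.15, 95% interval -0.65 to 0.07, exact permutation p = 0.1), and the differences within pairs 1, 2 and 3 were -0.41, -0.16 and -0.32. In the blocked fit the interval narrowed to -0.47 to -0.12, with limma's unadjusted p of 0.0072 and a Benjamini-Hochberg adjusted p of 0.211. With voom and the block the adjusted p was 0.0023. Without siPrp19 replicate 1, the log2 fold change in the fit with no block was -0.17.

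MOB1B measured 6.88, 8.01 and 8.63 FPKM in NC and 6.18, 6.84 and 6.98 FPKM in siPrp19, from 1236 to 1524 reads. The groups overlapped only through NC replicate 1, which lay below siPrp19 replicate 3. The mean was 85.0% of that in NC (log2 fold change -0.23, SE 0.13, 95% interval -0.55 to 0.09, exact permutation p = 0.2), and the pair differences were -0.15, -0.23 and -0.30. The blocked fit gave an interval of -0.38 to -0.07 and a limma adjusted p of 0.219, and voom with the block gave 0.0226. MOB1B and the neighbouring gene DCK overlap on the same strand, and 2.19% of MOB1B windows of 50 bases recur in another gene. The ratio of MOB1B to MOB1A stayed between 0.536 and 0.641 in the 6 samples. On the log2 scale it differed between the groups by 0.07, beside an SD of 0.05 in NC and 0.12 in siPrp19 (exact permutation p = 0.5).

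**Figure D2:**
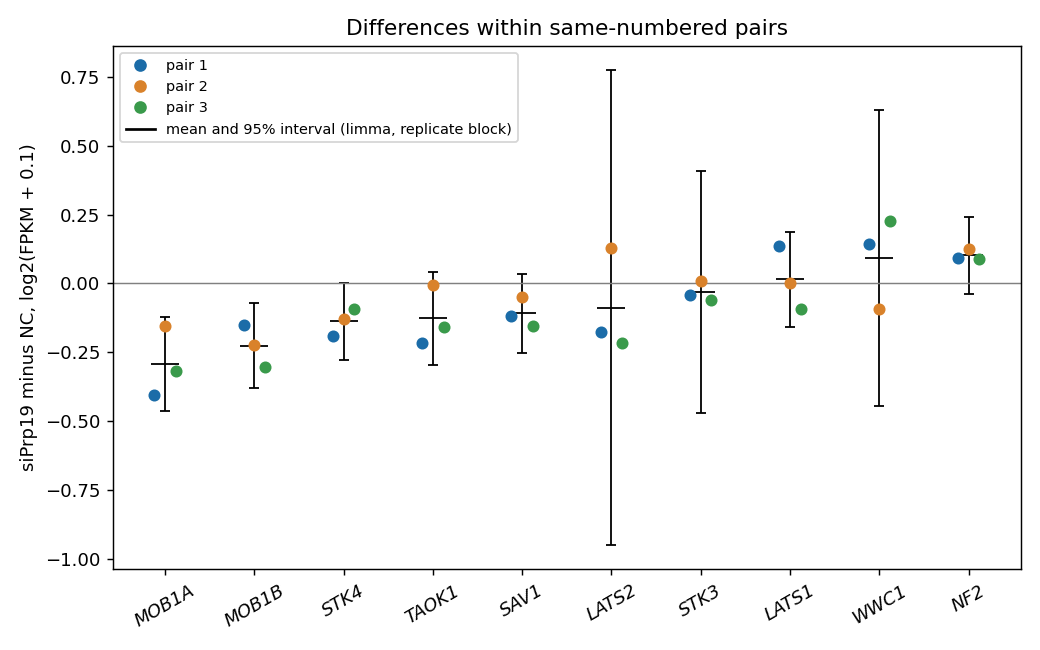
siPrp19 minus NC on the log2(FPKM + 0.1) scale within each same-numbered pair (coloured points), with the mean and 95% interval of limma with a replicate block, members ordered by log2 fold change. The intervals of MOB1A (-0.47 to -0.12) and MOB1B (-0.38 to -0.07) lie below 0, and those of the other members include 0.

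As the 2 MOB1 genes were the members called lower by voom with the block, their sequences were compared to see whether their reads can be separated. Both have coding sequences of 648 bases, of which 516 positions (79.6%) are identical, and the longest identical run is 17 bases. Coding exon 3 is shown as an example, with 17 of the differences spread along its 94 bases. It is not the densest, as exon 6 holds 19 differences in 75 bases. MOB1A lies at chr2:74152528-74178898 (minus strand) with this exon at chr2:74167014-74167107, and MOB1B at chr4:70902326-71022449 (plus strand) with this exon at chr4:70969931-70970024 (GRCh38, GENCODE 29). Capitals mark the bases that differ.
MOB1A exon 3: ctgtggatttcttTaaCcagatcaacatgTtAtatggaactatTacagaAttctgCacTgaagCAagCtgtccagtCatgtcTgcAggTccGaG
MOB1B exon 3: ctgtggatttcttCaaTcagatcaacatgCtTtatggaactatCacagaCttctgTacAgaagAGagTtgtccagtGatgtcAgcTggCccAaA
Over the 648 aligned positions, any stretch longer than 17 bases holds at least 1 base that differs between the genes.

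The bases before the start sites of the MOB1 genes are shown because both genes were called lower by voom with the block. Both were lower in 3 of 3 pairs, as were STK4, SAV1 and TAOK1, whose bases are not shown. RefSeq promoter sequences (GRCh38.p14) were found for 9 of the 10 members, in 13 windows of 200 bases that begin 250 bases before an annotated start; no entry was used for STK3. Capitals mark a CCAAT box (CCAAT, here as its reverse complement ATTGG) in the MOB1A window and a GC box (GGGCGG) in the MOB1B window.
MOB1A chr2:74178930-74179129, minus strand: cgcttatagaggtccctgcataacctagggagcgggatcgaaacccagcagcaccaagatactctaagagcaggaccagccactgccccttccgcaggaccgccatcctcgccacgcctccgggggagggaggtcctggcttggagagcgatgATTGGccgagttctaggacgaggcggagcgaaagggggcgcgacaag
MOB1B chr4:70902119-70902318, plus strand: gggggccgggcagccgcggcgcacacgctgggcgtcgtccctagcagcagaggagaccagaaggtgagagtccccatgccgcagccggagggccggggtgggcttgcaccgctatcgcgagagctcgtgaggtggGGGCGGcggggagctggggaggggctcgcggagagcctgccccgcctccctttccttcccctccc
The MOB1A window is 63.0% GC and the MOB1B window 74.5% GC, beside a median of 57.5% over 35116 windows of all genes. Both strands were searched for 6 motifs. A GC box occurred in 8 of the 13 member windows, from LATS1, LATS2, MOB1A (at another annotated start), MOB1B, NF2, STK4, TAOK1 and WWC1, and in 35.0% of all windows. A CCAAT box occurred in the windows of MOB1A and NF2 (27.4% of all windows), and an E-box (CACGTG) only in that of STK4 (4.51%). The ETS motif CCGGAAG, the CRE TGACGTCA and the TEAD motif GGAATG were in no member window, and in 5.13%, 0.951% and 9.71% of all windows. The letters searched do not overlap one another in the printed windows, and a match of letters is a description only.

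The upstream regulators did not move in a common direction. NF2, the membrane-linked scaffold that recruits LATS kinases (chr22:29603556-29698598, plus strand), measured 5.81, 6.16 and 7.70 FPKM in NC and 6.20, 6.73 and 8.19 FPKM in siPrp19. It was higher with siPrp19 in each pair, by 0.09, 0.12 and 0.09 on the log2 scale, but replicate 3 was higher than the other replicates in both groups and the groups overlapped. For NF2 the log2 fold change was 0.10 (SE 0.17, 95% interval -0.30 to 0.50, exact permutation p = 0.5), with a blocked interval of -0.04 to 0.24. NF2 was the only member higher in 3 of 3 pairs.

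WWC1, which joins NF2 at the cortex and binds LATS kinases (chr5:168291651-168472303, plus strand), measured 0.646, 0.434 and 0.888 FPKM in NC and 0.725, 0.401 and 1.06 FPKM in siPrp19. It varied more between replicates than any other member, with replicate 2 lowest and replicate 3 highest in both groups, on 77 to 264 reads. The log2 fold change was 0.09 (SE 0.41, 95% interval -0.88 to 1.07, exact permutation p = 0.8), the widest interval of the 10. TAOK1, a kinase that phosphorylates the MST kinases (chr17:29390464-29551904, plus strand), measured 7.85, 10.4 and 6.91 FPKM in NC and 6.73, 10.4 and 6.18 FPKM in siPrp19, from 2321 to 3674 reads. It was lower with siPrp19 in each pair, although hardly in pair 2, and replicate 2 was again highest in both groups. For TAOK1 the log2 fold change was -0.13 (SE 0.25, 95% interval -0.72 to 0.46, exact permutation p = 0.5). Its blocked interval was -0.30 to 0.04, and limma's voom with the block gave an adjusted p of 0.200.

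For all 10 members, the range between the means of the 3 replicate numbers was larger than the absolute log2 fold change between the groups. Over all genes tested the medians stood in the same order, at 0.46 for the range and 0.10 for the absolute log2 fold change. The share of all genes with this order was not computed. Among members the range went from 0.25 for MOB1B to 1.05 for WWC1 on the log2 scale. It was close to the log2 fold change for MOB1A (0.31 beside -0.29) and MOB1B (0.25 beside -0.23). STK4, LATS1, LATS2, SAV1 and TAOK1 had both samples of replicate 2 above the other 4 samples. WWC1 and STK3 had both samples of replicate 2 below the other 4, and with NF2 they had both samples of replicate 3 above the other 4. LATS1 had both samples of replicate 3, and LATS2 both samples of replicate 1, below the other 4. The share of all genes with such a replicate was not computed, so these lists describe the members only. MOB1A and MOB1B were the 2 members of which no replicate number stood above or below all other samples.

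**Figure D3:**
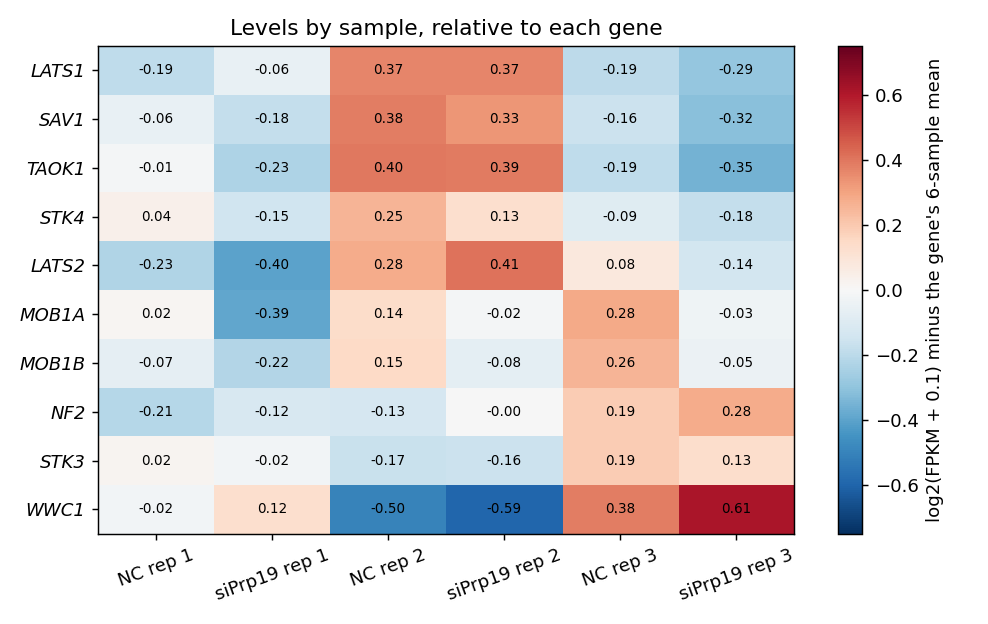
log2(FPKM + 0.1) of each member in each sample minus the mean of that gene over the 6 samples (red above, blue below). LATS1, SAV1 and TAOK1 were raised in both replicate 2 samples (0.33 to 0.40), WWC1 was lowered there (-0.50 and -0.59) and raised in replicate 3 (0.38 and 0.61), and MOB1A and MOB1B were lower in the siPrp19 sample of each pair.

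The 3 genes outside the list with the pattern most like the mean of the 7 tested members were SHCBP1 (Pearson r 0.998), BNIP2 (0.998) and ASB1 (0.995), out of 14455 genes searched over n = 6 samples. These values are a description: the points share the replicate differences above, and 394 genes reached 0.9.

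Among 63 other Hippo pathway genes, 53 averaged 1 FPKM or more. In limma without a block none passed the FDR, 2 were lower and 0 higher at an unadjusted p under 0.05 (backgrounds 0.947% and 0.608%), and 18 were lower and 5 higher in 3 of 3 pairs (backgrounds 21.3% and 19.2%). With voom and the block, 7 were called lower and 1 higher (backgrounds 4.65% and 3%). The groups did not overlap for 3 genes lower and 0 higher with siPrp19 (backgrounds 2.84% and 2.77%). Their median log2 fold change was -0.05, and 38 of the 53 were below 0, beside 51% of all genes tested.

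The 2 genes at an unadjusted p under 0.05 were effectors downstream of the kinases. YAP1, the coactivator itself, measured 1.20, 1.95 and 1.61 FPKM in NC and 0.524, 1.18 and 0.743 FPKM in siPrp19, on 75 to 216 reads (log2 fold change -0.92, SE 0.37). VGLL4, which competes with YAP for TEAD factors, measured 9.31, 11.7 and 11.1 FPKM in NC and 6.33, 8.97 and 8.58 FPKM in siPrp19 (log2 fold change -0.43, SE 0.18). Both had groups that did not overlap, as did WWTR1, which encodes TAZ and is named after its values were seen (log2 fold change -0.36, SE 0.19). These were the 3 of 53 genes without overlap (background 2.84%). With a pseudocount of 1 the log2 fold changes of YAP1 and WWTR1 were -0.52 and -0.23, and without siPrp19 replicate 1 that of VGLL4 was -0.28. The limma adjusted p was 0.9999 for all 3 without a block and 6.4e-05, 3.6e-05 and 0.0251 for YAP1, VGLL4 and WWTR1 with voom and the block.

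Among genes averaging 1 FPKM or more in the other groups of the pathway, those with the largest difference in each group had log2 fold changes between -0.36 and 0.19. WWC2, the paralogue of WWC1, was at 77.8% of its NC mean (log2 fold change -0.36, SE 0.23), and the NDR kinase STK38L at 85.2% (-0.25, SE 0.19). STRN, a subunit of the STRIPAK phosphatase complex that acts against the MST kinases, was at 84.3% (-0.25, SE 0.14), and the polarity protein MPP5 at 84.9% (-0.22, SE 0.18). The upstream kinase MINK1 was higher, at 113% of NC (0.19, SE 0.20). In fits with no block, which leave 1 replicate number in a single group, these values moved with single samples. The log2 fold change of MINK1 was 0.0041 without NC replicate 3, and that of STK38L -0.07 without siPrp19 replicate 1. Those of WWC2 and MPP5 were -0.19 and -0.11 without NC replicate 3. Within pairs 1, 2 and 3, WWC2 differed by -0.44, -0.32 and -0.30 and MPP5 by -0.10, -0.26 and -0.30. STK38L differed by -0.45, -0.05 and -0.25 and MINK1 by 0.18, 0.07 and 0.32. Limma's voom with the block gave adjusted p of 0.0038 for WWC2, 0.0119 for STRN, 0.0212 for STK38L, 0.0425 for MINK1 and 0.132 for MPP5. The RASSF adaptor RASSF1 (-0.03), the ubiquitin ligase ITCH (-0.10) and the YAP-degrading ligase subunit BTRC (-0.06) had smaller differences. Of the genes below this level, PTPN14, a phosphatase that binds YAP and is named after its values were seen, had a log2 fold change of -0.36 at a mean of 0.923 FPKM (limma voom with the block, adjusted p = 0.0162).

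**Figure D4:**
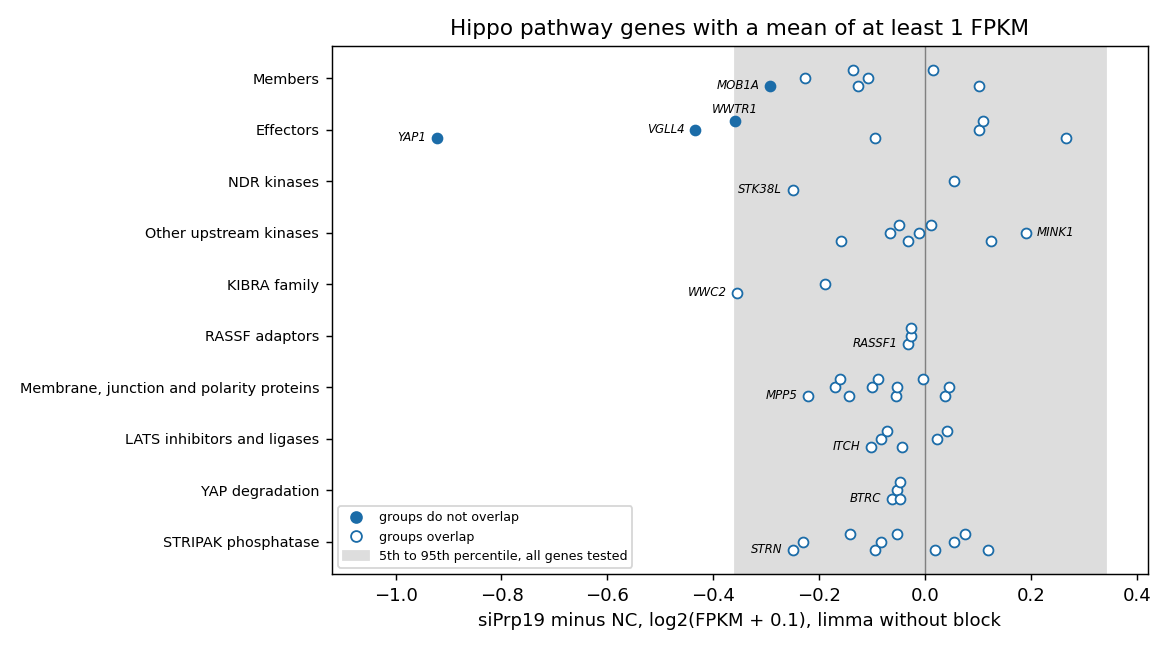
log2 fold change (siPrp19 minus NC) of the pathway genes averaging 1 FPKM or more, by group; filled points are genes whose groups do not overlap, and the grey band holds the 5th to 95th percentile of all genes tested (-0.36 to 0.34). All 7 members tested lie within the band, MOB1A (-0.29) being nearest its lower edge, while YAP1 (-0.92) and VGLL4 (-0.43) lie outside it.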

How the data were processed

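RNA-seq was analysed in 3 NC and 3 siPrp19 samples of SK-N-BE(2) cells, grouped and numbered by their labels. The authors deposited FPKM values for 58302 genes per sample; the submitters' processing notes list HISAT2 2.0.5, featureCounts 1.5.0-p3 and hg38, and the annotation is not given in the sources used here. Symbols, exons and positions came from GENCODE 29 (58039 identifiers matched). FPKM times exon length, divided by what 1 read is worth in a sample, gave whole reads (within 0.05) in all 6 samples for 35969 of 37521 genes above 0 (95.9%); for 1512 others, STK3 among them, another length did. Depth was 18874465 to 24022259 reads, and intervals cover the spread between these samples only.

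Median-of-ratios factors were identical in the 6 samples, so the FPKM were already on that scale. The scaled FPKM were tested as log2(FPKM + 0.1) by limma 3.58.1 in R 4.3.3 (lmFit, eBayes with trend, two-sided, no block, genes averaging 1 FPKM or more, Benjamini-Hochberg over 14462 genes, FDR under 0.05). The pseudocount understates changes of low genes. Exact permutation tests over samples were two-sided. The labels do not say that replicates came from separate cultures, so p-values measure the spread between these samples. Same-numbered samples deviated together (correlations 0.38 to 0.64, all 3 above 0.1), so the numbers were taken as pairs from the labels' replicate numbers, and a replicate block was fitted as an alternative. Further alternatives were voom on recovered reads without and with the block, eBayes without trend and robust, quantile normalization, TPM, a pseudocount of 1, means of 0.1 and 5 FPKM, no filter, unscaled values and leaving out each sample. As the scaling factors were identical, the fit of unscaled values could hardly differ from the main fit and tests nothing. Named genes were the 10 members, PRPF19, other pathway genes at an unadjusted p under 0.05 and otherwise the gene with the largest absolute log2 fold change in each group, of those averaging 1 FPKM or more. Members, lists and rules were chosen with earlier results of these data known.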

Additional observations from a re-analysis of the deposited data

How the results depend on the processing

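PRPF19 (-1.04) passed the FDR only with voom and the block, over genes averaging 1 FPKM (-1.04) or 0.1 FPKM (-1.04), and kept between -1.19 and -0.87 when a sample was left out. The pairing by replicate number raised the genes at an unadjusted p under 0.05 from 225 to 2265, and the replicate block alone brought 0 members and 0 other pathway genes past the FDR. Voom without the block called 0 genes, and voom with the block 1102 genes, 2 members (MOB1A and MOB1B) and 8 other pathway genes, while over genes averaging 0.1 FPKM it called 901, 2 and 7. Without the trend and with robust variance, limma called 1 gene, MIR6889 (named after its values were seen). No other call changed. MOB1A (-0.36 to -0.17), MOB1B (-0.32 to -0.16) and STK4 (-0.23 to -0.04) stayed below 0 whichever sample was left out, as did YAP1 (-1.19 to -0.68), VGLL4 (-0.53 to -0.28), WWTR1 (-0.40 to -0.29), WWC2 (-0.54 to -0.19), STK38L (-0.40 to -0.07), STRN (-0.36 to -0.18), MPP5 (-0.31 to -0.11) and ITCH (-0.16 to -0.03), and MINK1 stayed above 0 (0.0041 to 0.31). The direction turned for STK3 (-0.12 to 0.058), LATS1 (-0.17 to 0.20), LATS2 (-0.31 to 0.091), SAV1 (-0.30 to 0.056), NF2 (-0.011 to 0.22), WWC1 (-0.19 to 0.41), TAOK1 (-0.35 to 0.039), RASSF1 (-0.26 to 0.23), BTRC (-0.17 to 0.012) and the log2 ratios of STK4 to STK3 (-0.28 to 0.077), LATS2 to LATS1 (-0.20 to 0.044) and MOB1B to MOB1A (-0.0028 to 0.11); these fits without a block leave 1 replicate number in a single group, and the cause was not tested. SAV1 and TAOK1 were lower and NF2 higher in 3 of 3 pairs, so leaving out a whole pair does not turn their mean pair difference. LATS2 (17 to 36 reads) and WWC1 (77 to 264 reads) rest on the fewest reads.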

Other observations

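The levels of STK4, LATS1, SAV1 and TAOK1 in replicate 2 exceeded those in replicates 1 and 3 in both groups, while WWC1 in replicate 2 was at 0.434 FPKM in NC and 0.401 FPKM in siPrp19, below all other samples. Between its highest and lowest sample WWC1 differed 2.63-fold, LATS2 2.31-fold and MOB1B 1.40-fold. The labels give no culture, passage or library date for the replicates.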
